A study of Mus musculus with 3 samples.

Results

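The interleukin 6 family of cytokines and its receptors was described in cells of the mouse aortic adventitia, the connective tissue that wraps the vessel. The genes were chosen by name from the gene list of the deposited files: the ligands Il6, Lif, Il11 and Osm, the receptor chains Il6ra, Il11ra1, Il6st, Lifr and Osmr, and the feedback inhibitor Socs3. All 10 were found among the 32285 genes of the files.

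Cytokines of this family act through gp130, the signalling chain encoded by Il6st, which pairs with a chain that recognises the ligand. Interleukin 6 and interleukin 11 bind a private receptor first (Il6ra, Il11ra1). Leukaemia inhibitory factor (Lif) signals through gp130 paired with Lifr, and oncostatin M (Osm) through gp130 paired with Osmr or Lifr. The receptors activate Janus kinases and the transcription factor STAT3, and STAT3 switches on Socs3, whose protein binds gp130 and shuts the signal down. In the vessel wall interleukin 6 is known as a product of stimulated fibroblasts, and oncostatin M as a product of macrophages and neutrophils.

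Single cells were sequenced from mice given angiotensin II with voluntary wheel running (AngII_VWR), mice given the pressor hormone angiotensin II without running (AngII), and saline-treated mice (Vehicle). There were 3 mice per group (9 in total), and 1 library stood for each group. The labels gave no strain, age, dose or duration, and did not say how the 3 mice of a group were combined, so mice could not be told apart and no group had a replicate. The title of the running library reads "AngIIEX", and it was taken as AngII_VWR, the design's exercise group.

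The files held 105679209 UMIs (molecules counted once each) for AngII_VWR, 141570158 for AngII and 165977330 for Vehicle. After filtering, 16125 cells of AngII_VWR, 9115 of AngII and 12324 of Vehicle remained. Their median was 4472 UMIs per cell in AngII_VWR, 13154 in AngII and 9430.5 in Vehicle. The AngII_VWR library was thus the shallowest per cell, and it was also written by another Cell Ranger version (7.1.0) than the AngII and Vehicle libraries (7.0.1). With 1 library per group no test was possible, and the 95% intervals below are exact and cover counting error only, not differences between mice or preparations.

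Cells were put in a fibroblast class when Col1a1, Col1a2, Dcn and Lum together made up at least 1% of their UMIs. They were put in a macrophage class when C1qa, C1qb and C1qc made up at least 0.3%. The fibroblast class held 10913 cells in AngII_VWR, 6081 in AngII and 6545 in Vehicle, and the macrophage class 3221 in AngII_VWR, 1998 in AngII and 2537 in Vehicle. The remaining cells numbered 1915 in AngII_VWR, 1022 in AngII and 3177 in Vehicle. Cells that met both cuts were set aside, 76 of them in AngII_VWR, 14 in AngII and 65 in Vehicle. Levels are UMIs summed over a class and scaled to 1000000 UMIs of that class (CPM). The classes were described with marker lists. Lum is in the fibroblast list and C1qa in the macrophage list, and both also belong to the cuts. Part of each sum was thus fixed by the cuts. A list of 8 fibroblast markers summed to 13649 CPM in AngII_VWR, 17005 in AngII and 11836 in Vehicle in the fibroblast class. In the macrophage class it summed to 690.2 CPM in AngII_VWR, 307 in AngII and 252 in Vehicle. A list of 8 macrophage markers summed to 19735 CPM in AngII_VWR, 24521 in AngII and 21764 in Vehicle in the macrophage class and to 353 CPM in AngII_VWR, 156 in AngII and 142 in Vehicle in the fibroblast class. The macrophage class thus carried fibroblast markers at 5.06% of the fibroblast level in AngII_VWR, 1.81% in AngII and 2.13% in Vehicle, which is called the crossing below. The fibroblast class carried macrophage markers at 1.79% of the macrophage level in AngII_VWR, 0.636% in AngII and 0.654% in Vehicle. These percentages share the limit of the sums, since Lum and C1qa enter them too.

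**Figure D1:**
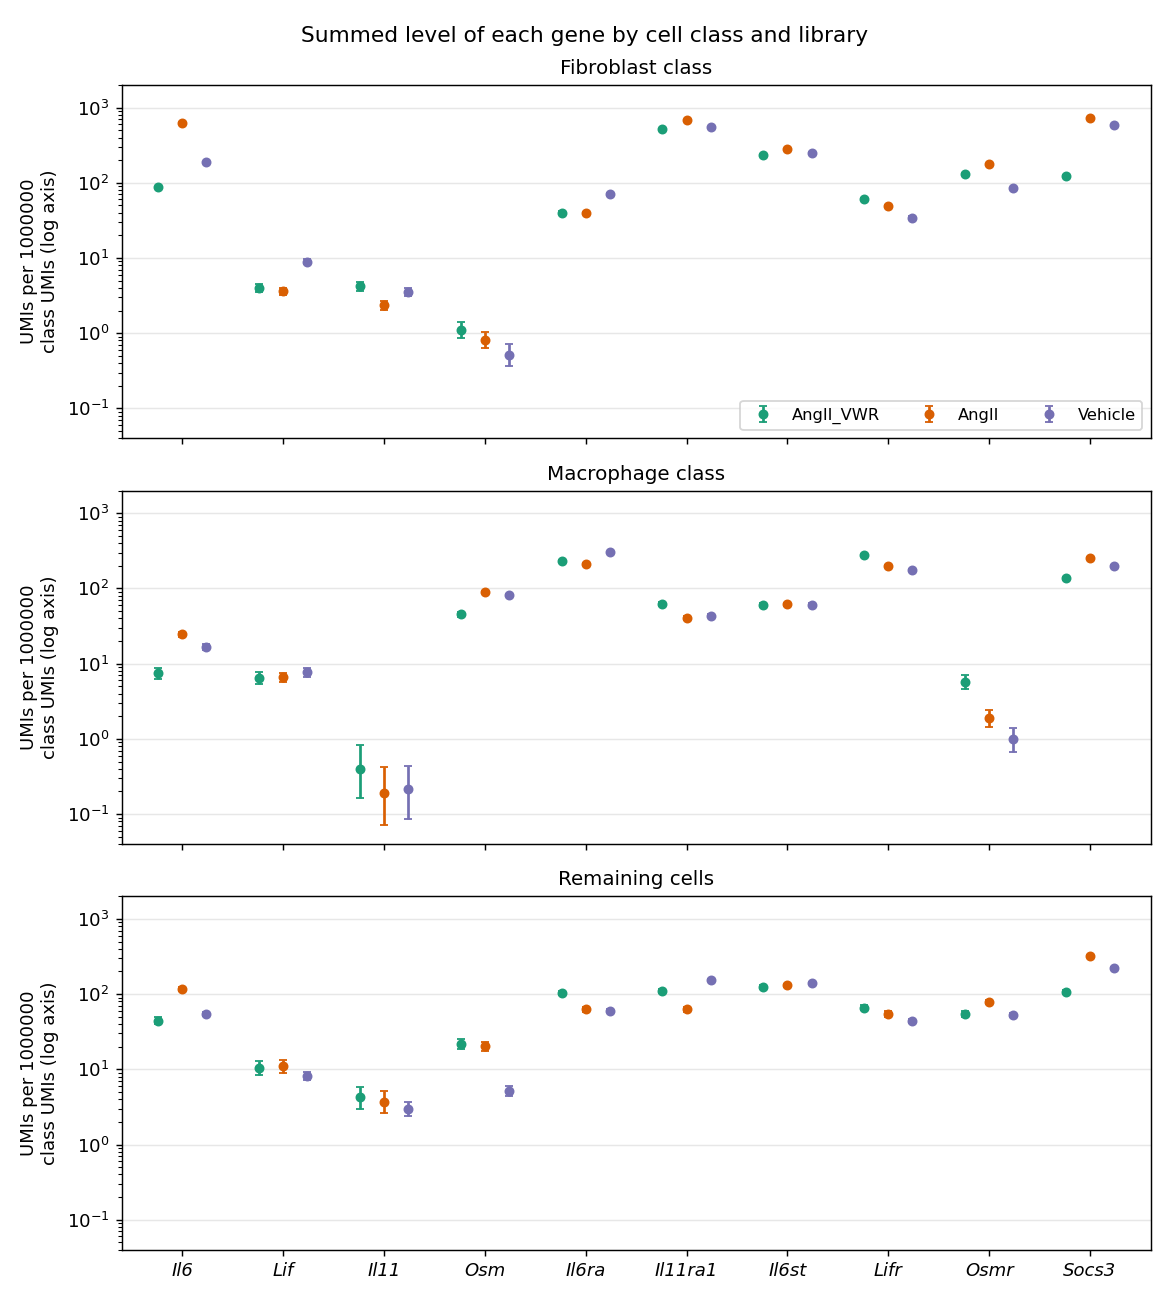
Summed level of each gene (UMIs per 1000000 UMIs of the class, log axis) in the fibroblast class, the macrophage class and the remaining cells, for AngII_VWR, AngII and Vehicle, 1 library each. Points are levels and bars 95% exact Poisson intervals, often smaller than the point. Il6, Osmr and Il11ra1 were highest in the fibroblast class, and Osm, Il6ra and Lifr in the macrophage class.

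The family divided between the 2 large classes. Il6, Il11ra1, Il6st and Osmr were higher in fibroblasts than in macrophages in all 3 libraries, and Osm, Il6ra and Lifr were higher in macrophages in all 3. Socs3 was higher in fibroblasts in AngII and Vehicle, but not in AngII_VWR, where the fibroblast class had 125 CPM against 137 CPM in macrophages. In AngII the 2 levels were 726 CPM in fibroblasts and 254 CPM in macrophages, and in Vehicle 580 and 197 CPM. Neither Lif nor Il11 passed 10 CPM in either class. In the genome, Osm and Lif lie next to each other in the same orientation on chromosome 11, with 16530 bases between them. Osmr and Lifr lie 215644 bases apart on chromosome 15, on opposite strands.

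Il6 (ENSMUSG00000025746, chr5:30013114-30019981, plus strand, mm10) was the member that differed most between the libraries. In the fibroblast class it stood at 86.7 CPM (84.4 to 89.2) in AngII_VWR, 628 CPM (623 to 634) in AngII and 186 CPM (183 to 189) in Vehicle. The AngII level was 3.37-fold that of Vehicle (3.31 to 3.44, log2 ratio 1.75). The AngII_VWR level was 7.24-fold lower than that of AngII (7.04 to 7.46, log2 ratio −2.86), and it also lay below the Vehicle level. UMIs of Il6 were found in 1370 of 10913 fibroblasts in AngII_VWR (12.6%), 3175 of 6081 in AngII (52.2%) and 1708 of 6545 in Vehicle (26.1%). Because depth per cell differed, each cell was also thinned to 2000 UMIs, leaving out 2141 shallower fibroblasts in AngII_VWR, 477 in AngII and 987 in Vehicle. The shares then were 8.44% in AngII_VWR (7.86 to 9.04), 37.1% in AngII (35.8 to 38.4) and 15.9% in Vehicle (15.0 to 16.9), in the same order as the levels. T cell-marker cells, which served as a background for stray RNA, gave Il6 in 0 of 76 cells in AngII_VWR, and 3 counts of that total would be a share of cells with a UMI of 3.95%. They gave it in 1.25% of 80 cells in AngII and 0 of 161 in Vehicle (3 counts would be 1.86%), all thinned to the same depth.

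Fibroblasts differed widely among themselves in Il6. After thinning, 5 or more Il6 UMIs were carried by 0.604% of fibroblasts in AngII_VWR, 8.55% in AngII and 1.87% in Vehicle. In AngII_VWR the top 10% of fibroblasts by Il6 held all of the Il6 UMIs, since fewer than 10% of cells had any. They held 55.1% of them in AngII and 83.9% in Vehicle. No single cell carried over 1% of the class's Il6 UMIs in any library.

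**Figure D2:**
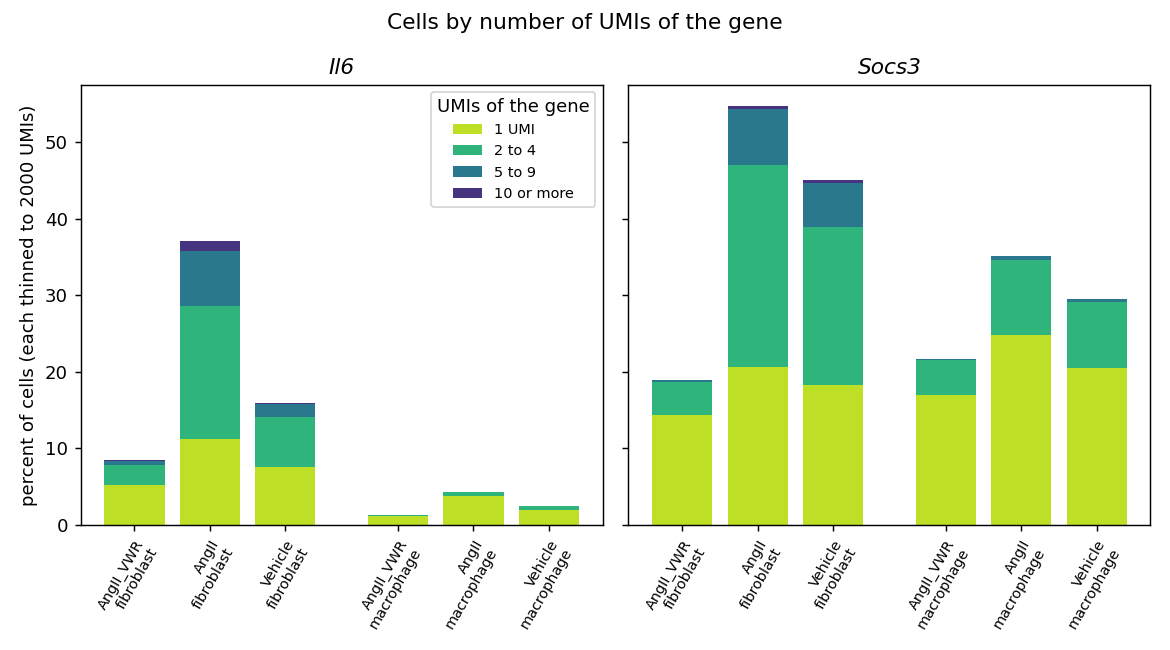
Percent of cells with 1, 2 to 4, 5 to 9 and 10 or more UMIs of Il6 (left) and Socs3 (right) after every cell was thinned to 2000 UMIs, in the fibroblast and macrophage classes of AngII_VWR, AngII and Vehicle. For both genes the AngII fibroblast bar is the tallest, at 37.1% for Il6 and 54.7% for Socs3, and the AngII_VWR bar the shortest of the 3 fibroblast bars.

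The bases just before the Il6 start site are shown because the letters of 3 inflammatory factors were found there, in capitals: an AP-1 match, a C/EBP match and an NF-kB match, in that order. The sequence is RefSeq's (GRCm38.p6, chr5:30012864-30013113, plus strand), written 5′ to 3′ and ending 1 base before the start.
Il6 promoter: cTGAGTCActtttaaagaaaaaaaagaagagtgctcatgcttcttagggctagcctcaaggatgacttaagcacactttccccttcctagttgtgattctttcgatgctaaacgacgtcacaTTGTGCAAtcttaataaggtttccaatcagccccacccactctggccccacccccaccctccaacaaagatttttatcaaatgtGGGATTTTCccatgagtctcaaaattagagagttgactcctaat
The letters searched on both strands were TGANTCA for AP-1, TTNNGCAA for C/EBP and GGGANNTTC for NF-kB, with N any base, and no match overlapped another. Of the 32851 promoter windows of this length in the table, 6.75% held the AP-1 letters, 9.56% the C/EBP letters and 3.23% the NF-kB letters. Among the 9 members with an entry, NF-kB and C/EBP letters were found for Il6 alone, and AP-1 letters for Il6, Lif and Il11. A match describes the sequence and does not show that a factor was bound.

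The fibroblast class was split by markers of activated fibroblasts (Thbs4, Tnc, Cthrc1, Comp, Postn, Ecrg4, Ndnf, Col8a1) and of adventitial progenitor fibroblasts (Dpp4, Pi16, Cd55, Sema3c, Anxa3, Limch1, Dact2, Smpd3). Both lists came from earlier results on these libraries. Cells were assigned, without thinning, by UMIs of at least 2 markers of 1 list and more than of the other. Activated-marker cells made up 31.1% of the class in AngII_VWR, 51.9% in AngII and 4.28% in Vehicle. Progenitor-marker cells made up 34.4% in AngII_VWR, 26.2% in AngII and 72.0% in Vehicle. The cells in neither subset were the shallowest, with median UMIs of 2744.5 in AngII_VWR, 5900 in AngII and 2529 in Vehicle. The shares can thus depend on depth, and this was not tested. Within activated-marker cells Il6 stood at 122 CPM (117 to 127) in AngII_VWR, 773 CPM (765 to 781) in AngII and 615 CPM (588 to 643) in Vehicle. The AngII over Vehicle log2 ratio there was 0.33, under the 2-fold mark that the whole class passed. Within progenitor-marker cells Il6 stood at 48.5 CPM in AngII_VWR, 358 in AngII and 150.1 in Vehicle, a log2 ratio of AngII over Vehicle of 1.25. Within both marker-defined subsets the AngII over Vehicle ratio of Il6 was smaller than in the whole class. Because the lists came from these same libraries, the difference in subset mix between AngII and Vehicle is not a separate result. The log2 ratio of AngII_VWR over AngII was −2.66 in activated-marker cells and −2.88 in progenitor-marker cells, against −2.86 in the class.

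**Figure D3:**
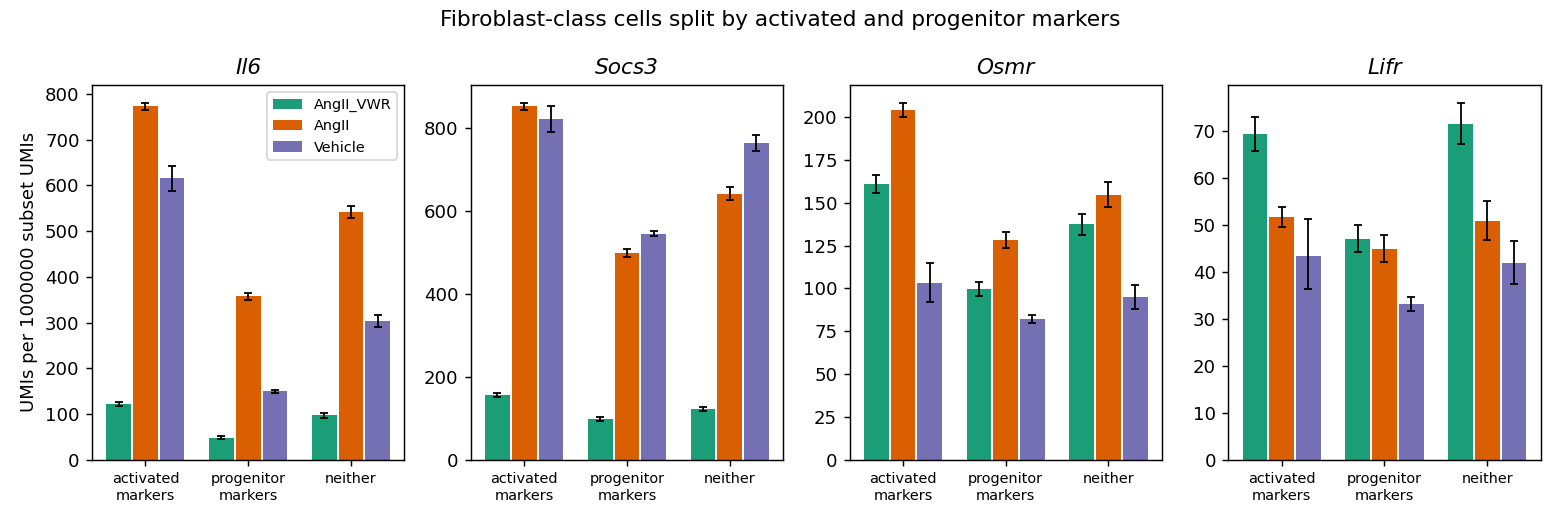
Level of Il6, Socs3, Osmr and Lifr (UMIs per 1000000 UMIs of the subset) in fibroblast-class cells with activated markers, with progenitor markers or with neither, for AngII_VWR, AngII and Vehicle. Bars are 1 library each and error bars 95% exact Poisson intervals. In each of the 3 subsets Il6 and Socs3 were lowest in AngII_VWR, where Il6 stood at 122 CPM in activated-marker, 48.5 CPM in progenitor-marker and 97.4 CPM in the other fibroblasts.

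Outside the fibroblasts Il6 was low in the macrophage class, at 7.40 CPM (6.18 to 8.80) in AngII_VWR, 24.5 CPM (22.8 to 26.3) in AngII and 16.6 CPM (15.3 to 18.1) in Vehicle. These were 8.53% of the fibroblast level in AngII_VWR, 3.90% in AngII and 8.94% in Vehicle, above the crossing measured with fibroblast markers. The log2 ratio of AngII_VWR over AngII was −1.73, and 0.53 once 5% of the class total was subtracted with the profile of the whole library as free RNA. The log2 ratio of AngII over Vehicle was 0.56, and −1.93 after the same subtraction. The same 5% was taken from every library, although the crossing was 5.06% in AngII_VWR, 1.81% in AngII and 2.13% in Vehicle. The part of stray RNA in these Il6 ratios was not tested. Cells with macrophage markers but too little C1q for the class held more Il6: 81.7 CPM in AngII_VWR (270 cells), 246 CPM in AngII (96 cells) and 328 CPM in Vehicle (131 cells). There the order of AngII and Vehicle was the opposite of that in fibroblasts. Endothelial-marker cells held 8.08 CPM in AngII_VWR, 67.0 in AngII and 4.10 in Vehicle, and smooth muscle-marker cells 5.09 CPM in Vehicle. In the 35 monocyte-marker cells of AngII_VWR Il6 stood at 150.1 CPM, but 1 cell gave nearly all of its UMIs.

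Lif (ENSMUSG00000034394, chr11:4257557-4272514), a cytokine named for its action on leukaemia cells, had its highest level in a small population. In cells with markers of group 2 innate lymphoid cells, tissue lymphocytes that make type 2 cytokines, it stood at 205 CPM (145 to 282, 58 cells) in AngII_VWR, 187 CPM (140 to 245, 43 cells) in AngII and 228 CPM (182 to 283, 49 cells) in Vehicle. The 3 intervals overlapped. T cell-marker cells held 6.15 CPM in AngII_VWR, 24.1 in AngII and 14.3 in Vehicle. In the fibroblast class Lif stood at 4.02 CPM (3.53 to 4.57) in AngII_VWR, 3.60 CPM (3.20 to 4.03) in AngII and 8.96 CPM (8.29 to 9.67) in Vehicle, so the AngII level was 2.49-fold lower than that of Vehicle (2.17 to 2.87). After thinning, 0.821% of fibroblasts in AngII_VWR, 0.607% in AngII and 1.67% in Vehicle had a Lif UMI. In macrophages the levels of 6.43 CPM in AngII_VWR, 6.59 in AngII and 7.63 in Vehicle had overlapping intervals.

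Il11 (ENSMUSG00000004371, chr7:4772373-4782859), known as a fibrosis-linked cytokine of stromal cells, was low in both large classes. In the fibroblast class it stood at 4.20 CPM (3.69 to 4.76) in AngII_VWR, 2.36 CPM (2.04 to 2.71) in AngII and 3.54 CPM (3.12 to 4.002) in Vehicle, from 245 UMIs in AngII_VWR, 194 in AngII and 259 in Vehicle. It did not reach the minimum of 5 CPM set for ratios. The AngII library held the lowest of the 3 values, with a counting interval below those of the other two. In macrophages it had 7 UMIs in AngII_VWR, 6 in AngII and 7 in Vehicle.

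Osm (ENSMUSG00000058755, chr11:4236420-4241026) was, of the 2 large classes, a gene of the macrophage class. It stood at 45.3 CPM (42.2 to 48.6) in macrophages of AngII_VWR, 89.8 CPM (86.5 to 93.1) in AngII and 81.6 CPM (78.6 to 84.8) in Vehicle. The AngII_VWR level was 1.98-fold lower than that of AngII (1.83 to 2.15, log2 ratio −0.99), while AngII stood at 1.10-fold that of Vehicle (1.04 to 1.16). The share of thinned macrophages with an Osm UMI was 7.09% in AngII_VWR, 14.0% in AngII and 13.4% in Vehicle, and 15.1% in AngII_VWR, 53.5% in AngII and 40.4% in Vehicle before thinning. In fibroblasts Osm stood at 1.11 CPM in AngII_VWR, 0.814 in AngII and 0.520 in Vehicle, which was 2.46% of the macrophage level in AngII_VWR, 0.907% in AngII and 0.637% in Vehicle. That was close to the crossing of macrophage markers, so the fibroblast value was not told apart from stray RNA. In AngII_VWR, neutrophil-marker cells held 95.3 CPM (66.3 to 132, 214 cells) and monocyte-marker cells 150.1 CPM (101 to 216, 35 cells). Both levels lay above that of the macrophage class in this library. Fewer than 20 cells of either kind were found in AngII and in Vehicle, and they were not measured there. In the remaining cells as a whole Osm was at 21.8 CPM in AngII_VWR, 20.3 in AngII and 5.14 in Vehicle, where the mix of cell types differed between libraries.

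**Figure D4:**
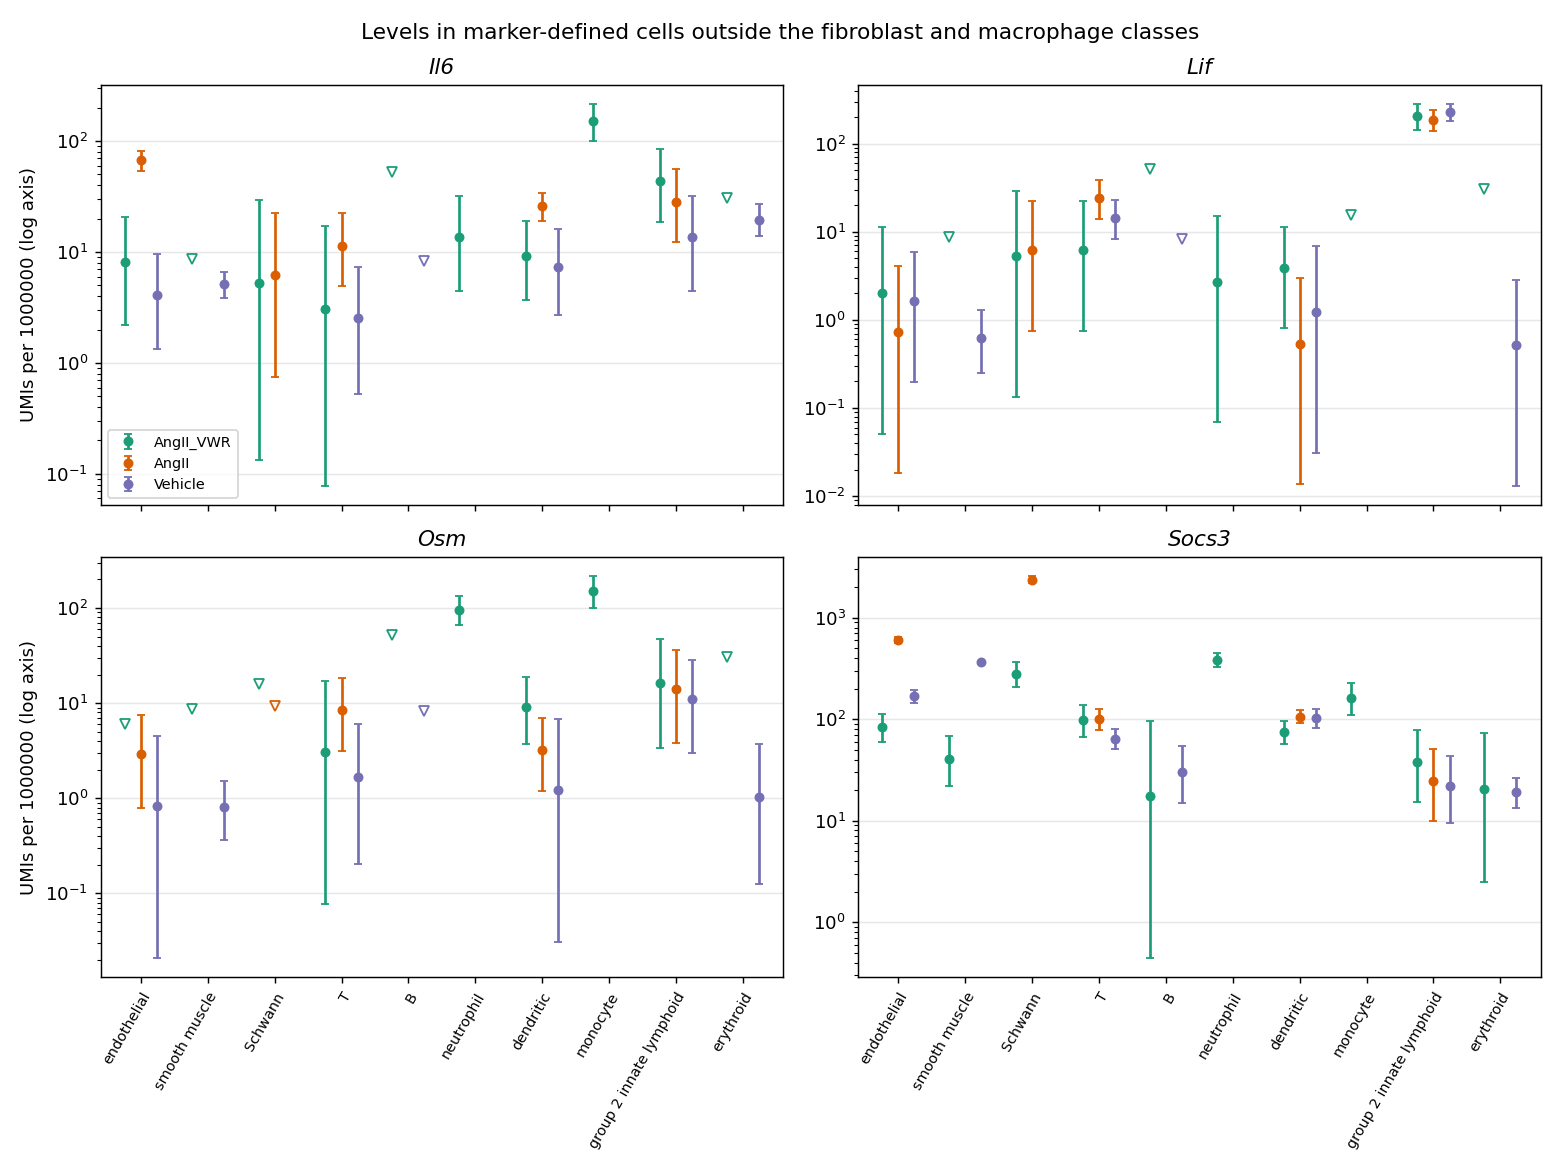
Level of Il6, Lif, Osm and Socs3 (UMIs per 1000000 UMIs, log axis) in marker-defined cells outside the fibroblast and macrophage classes, for types with at least 20 cells in the library. Points are 1 library each with 95% exact Poisson intervals, and open triangles mark types with 0 UMIs at the level of 3 counts. Lif stood out in group 2 innate lymphoid-marker cells at 187 to 228 CPM, and Socs3 in Schwann-marker cells of AngII at 2376 CPM.

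The ligand-binding chains for interleukin 6 and for leukaemia inhibitory factor were macrophage-weighted. Il6ra (ENSMUSG00000027947, chr3:89864059-89913196) stood at 232 CPM (225 to 239) in macrophages of AngII_VWR, 214 CPM (209 to 219) in AngII and 303 CPM (297 to 309) in Vehicle. The AngII level was 1.42-fold lower than that of Vehicle (1.37 to 1.46). Its fibroblast levels of 40.1 CPM in AngII_VWR, 40.0 in AngII and 70.6 in Vehicle were 17.3% of the macrophage levels in AngII_VWR, 18.7% in AngII and 23.3% in Vehicle, well above the crossing of macrophage markers. Among fibroblasts it was highest in progenitor-marker cells, at 56.9 CPM in AngII_VWR, 67.0 in AngII and 78.9 in Vehicle, against 28.5 CPM in AngII_VWR, 29.7 in AngII and 27.3 in Vehicle in activated-marker cells. The AngII over Vehicle log2 ratio of −0.82 in the whole fibroblast class was 0.12 within activated-marker cells and −0.24 within progenitor-marker cells. It turned to 0.18 when the collagen and C1q cuts were doubled. Neutrophil-marker cells of AngII_VWR held 180.0 CPM and monocyte-marker cells 192 CPM.

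Lifr (ENSMUSG00000054263, chr15:7090614-7197489) stood at 281 CPM (274 to 289) in macrophages of AngII_VWR, 197 CPM (192 to 202) in AngII and 178 CPM (174 to 183) in Vehicle. AngII_VWR was 1.43-fold AngII (1.38 to 1.48), and AngII 1.10-fold Vehicle (1.06 to 1.14). In fibroblasts the order was the same, at 60.9 CPM in AngII_VWR, 49.7 in AngII and 34.4 in Vehicle, and the AngII level was 1.44-fold that of Vehicle (1.37 to 1.52). After thinning, 40.4% of macrophages in AngII_VWR, 30.1% in AngII and 29.3% in Vehicle and 11.7% of fibroblasts in AngII_VWR, 8.90% in AngII and 6.46% in Vehicle had a Lifr UMI. Of the members measured in both classes, Lifr alone was highest in AngII_VWR in both. It was at 0 in T cell-marker cells of AngII_VWR (95 cells) and at 2.84 CPM in those of AngII and 4.21 CPM in those of Vehicle.

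Osmr (ENSMUSG00000022146, chr15:6813577-6874969) was a gene of fibroblasts and endothelial cells. In the fibroblast class it stood at 131 CPM (128 to 134) in AngII_VWR, 177 CPM (174 to 180) in AngII and 84.2 CPM (82.2 to 86.4) in Vehicle. The AngII level was 2.10-fold that of Vehicle (2.04 to 2.16), and that of AngII_VWR was 1.35-fold lower than AngII (1.32 to 1.39) but still above Vehicle. Within activated-marker and progenitor-marker cells the AngII over Vehicle log2 ratio was 0.99 and 0.64, against 1.07 in the class, so the 2-fold mark was missed in both. The thinned share of fibroblasts with an Osmr UMI was 21.7% in AngII_VWR, 23.2% in AngII and 14.2% in Vehicle. Endothelial-marker cells held 162 CPM (128 to 201) in AngII_VWR, 248 CPM (223 to 276) in AngII and 143 CPM (122 to 165) in Vehicle, again highest in AngII. In macrophages the 5.74 CPM in AngII_VWR, 1.89 in AngII and 0.981 in Vehicle were 4.39% of the fibroblast level in AngII_VWR, 1.07% in AngII and 1.16% in Vehicle. This did not exceed the crossing of fibroblast markers in any library, so the macrophage value was not told apart from stray RNA.

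Il11ra1 (ENSMUSG00000073889, chr4:41699989-41769474) was detected in most fibroblasts. It stood at 512 CPM (506 to 518) in AngII_VWR, 676 CPM (671 to 682) in AngII and 545 CPM (540.0 to 551) in Vehicle, and 61.8% of thinned fibroblasts in AngII_VWR, 69.6% in AngII and 61.5% in Vehicle had a UMI. The AngII over Vehicle log2 ratio of 0.31 was −0.07 in activated-marker cells, −0.26 in progenitor-marker cells and −0.07 with the class cuts doubled. Vehicle smooth muscle-marker cells held 249 CPM. Macrophages held 62.3 CPM in AngII_VWR, 40.3 in AngII and 43.5 in Vehicle, which were 12.2% of the fibroblast levels in AngII_VWR, 5.96% in AngII and 7.98% in Vehicle. T cell-marker cells held 49.2 CPM in AngII_VWR, 9.94 in AngII and 13.5 in Vehicle, so the level in cells that should lack the gene was also highest in AngII_VWR. Mouse genes nearly identical to Il11ra1 (Il11ra2 and Gm13305) had at most 8 UMIs in any class of a library, and reads could be split or lost among these copies.

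Il6st (ENSMUSG00000021756, chr13:112464070-112510086), the shared gp130 chain, varied least across the libraries in the 2 large classes. In fibroblasts it stood at 236 CPM (232 to 240.2) in AngII_VWR, 278 CPM (274 to 282) in AngII and 250.5 CPM (247 to 254) in Vehicle. In macrophages it stood at 60.1 CPM in AngII_VWR, 61.9 in AngII and 61.0 in Vehicle with overlapping intervals. Endothelial-marker cells held 212 CPM (173 to 257) in AngII_VWR, 267 CPM (240.0 to 295) in AngII and 335 CPM (304 to 369) in Vehicle. T cell-marker cells held 46.1 CPM in AngII_VWR, 52.6 in AngII and 145 in Vehicle, with the Vehicle interval (124 to 168) above the others. Cells with erythroid markers held 10.2 CPM in AngII_VWR and 21.1 CPM in Vehicle.

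Socs3 (ENSMUSG00000053113, chr11:117966079-117970047, minus strand), the feedback inhibitor, was lower in AngII_VWR than in AngII in every class. In fibroblasts it stood at 125 CPM (122 to 128) in AngII_VWR, 726 CPM (721 to 732) in AngII and 580 CPM (574 to 585) in Vehicle. AngII_VWR was 5.82-fold lower than AngII (5.68 to 5.96), and AngII was 1.25-fold Vehicle (1.24 to 1.27), with a log2 ratio of 0.33 that was −0.03 when the class cuts were doubled. The thinned share of fibroblasts with a Socs3 UMI was 19.0% in AngII_VWR (18.2 to 19.8), 54.7% in AngII (53.4 to 56.1) and 45.0% in Vehicle (43.7 to 46.3), and 33.5% in AngII_VWR, 74.9% in AngII and 61.5% in Vehicle unthinned. Unlike Il6, Socs3 in Vehicle fibroblasts was thus close to AngII. Within activated-marker cells it stood at 156 CPM in AngII_VWR, 852 in AngII and 821 in Vehicle, and within progenitor-marker cells at 98.5 CPM in AngII_VWR, 497 in AngII and 545 in Vehicle, where Vehicle was the highest. In macrophages it stood at 137 CPM in AngII_VWR, 254 in AngII and 197 in Vehicle, 1.86-fold lower in AngII_VWR than in AngII (1.78 to 1.95).

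Among the remaining cells the largest Socs3 level was that of Schwann-marker cells, the glia of nerve fibres, in AngII. It was 2376 CPM there (2211 to 2551, 25 cells), against 279 CPM in AngII_VWR (209 to 365, 41 cells). In Vehicle fewer than 20 such cells were found. Endothelial-marker cells held 82.8 CPM (59.4 to 112) in AngII_VWR, 602 CPM (561 to 644) in AngII and 167 CPM (145 to 192) in Vehicle, with no overlap between the libraries. Smooth muscle-marker cells held 40.4 CPM in AngII_VWR and 363 CPM in Vehicle. T cell-marker cells differed less, at 98.4 CPM in AngII_VWR, 99.4 in AngII and 64.1 in Vehicle.

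The Socs3 window before the RefSeq start is shown because a STAT match, the letters TTCNNNGAA, lies in it and STAT3 is a known activator of the gene. This window lies within the gene coordinates given above, downstream of the start at 117970047 that they imply on the minus strand. The match is thus upstream of the RefSeq start only. The sequence is RefSeq's (GRCm38.p6, chr11:117969367-117969616, minus strand), written 5′ to 3′ on the gene's strand and ending 1 base before the RefSeq start, with the match in capitals.
Socs3 promoter: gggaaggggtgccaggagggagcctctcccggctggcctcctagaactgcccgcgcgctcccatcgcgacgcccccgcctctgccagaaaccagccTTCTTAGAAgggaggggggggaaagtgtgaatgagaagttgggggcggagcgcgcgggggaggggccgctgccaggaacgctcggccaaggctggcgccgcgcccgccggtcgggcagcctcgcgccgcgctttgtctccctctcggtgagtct
The letters were found in 7.02% of the 32851 promoter windows, on either strand, and among the members in Socs3 alone. They read the same on both strands, and none of the letters searched for AP-1, C/EBP or NF-kB was found in this window.

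Il6 and Socs3 were often found in the same fibroblasts. Among thinned fibroblasts of AngII_VWR, 32.4% of cells with an Il6 UMI also had a Socs3 UMI (29.1 to 35.9, 240 of 740 cells), against 17.7% of cells without Il6. In AngII the shares were 74.4% (72.4 to 76.2, 1546 of 2079) and 43.2%, and in Vehicle 73.6% (70.6 to 76.5, 652 of 886) and 39.6%. The difference was thus present in all 3 libraries, and at a lower Socs3 level in AngII_VWR. Osmr was also found more often in cells with Il6 than without, at 29.2% and 21.0% in AngII_VWR, 32.3% and 17.8% in AngII, and 17.8% and 13.5% in Vehicle. In macrophages Socs3 was found in 22.2% of cells with Il6 and 21.7% of those without in AngII_VWR, 36.9% and 35.1% in AngII, and 32.2% and 29.4% in Vehicle, with overlapping intervals in each library. Macrophages with and without Osm had Socs3 in 21.4% and 21.7% in AngII_VWR, 33.1% and 35.5% in AngII, and 26.2% and 30.0% in Vehicle. Cells of 1 library are not replicates, and no test was made.

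The comparison of AngII with Vehicle asks how the family differs under the hormone. A gene was measured with at least 5 CPM in either library and 10 UMIs in both together, and called at 2-fold. In fibroblasts 2 of 8 measured members were at least 2-fold higher in AngII, Il6 and Osmr, against 3.47% of all 10449 genes measured, and 1 was at least 2-fold lower, Lif, against 2.02%. The median log2 ratio of the 8 was 0.32, against −0.08 for all genes. In macrophages none of 8 measured members was called, against 3.86% of genes higher and 2.43% lower, and the members' median was 0.08. In the remaining cells 2 of 9 were higher, Il6 and Osm, against 13.7%, and Il11ra1 was lower, against 7.71%.

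The comparison of AngII_VWR with AngII asks how the family differs with running under the hormone. In fibroblasts 2 of 7 measured members were at least 2-fold lower in AngII_VWR, Il6 and Socs3, against 1.96% of 10589 genes, and none was higher, against 2.29%. The median log2 ratio of the 7 was −0.40, and that of all genes 0.10, so relative to all genes Il6 was at −2.96 and Socs3 at −2.64. In macrophages 1 of 9 was higher, Osmr, against 6.18%, and 1 was lower, Il6, against 2.21%. The Osmr level there did not exceed the measured crossing from fibroblasts. The Il6 ratio changed sign when 5% free RNA was subtracted, the same share in both libraries although their crossing differed. The log2 ratios of Osm and Socs3 there were −0.99 and −0.90, and −1.17 and −1.08 relative to the median of all genes, 0.18. In the remaining cells none of 9 was higher, against 3.43%, and Il6 and Socs3 were lower, against 5.5%. The AngII library is shared by both comparisons, so a high or low value in it enters both.

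**Figure D5:**
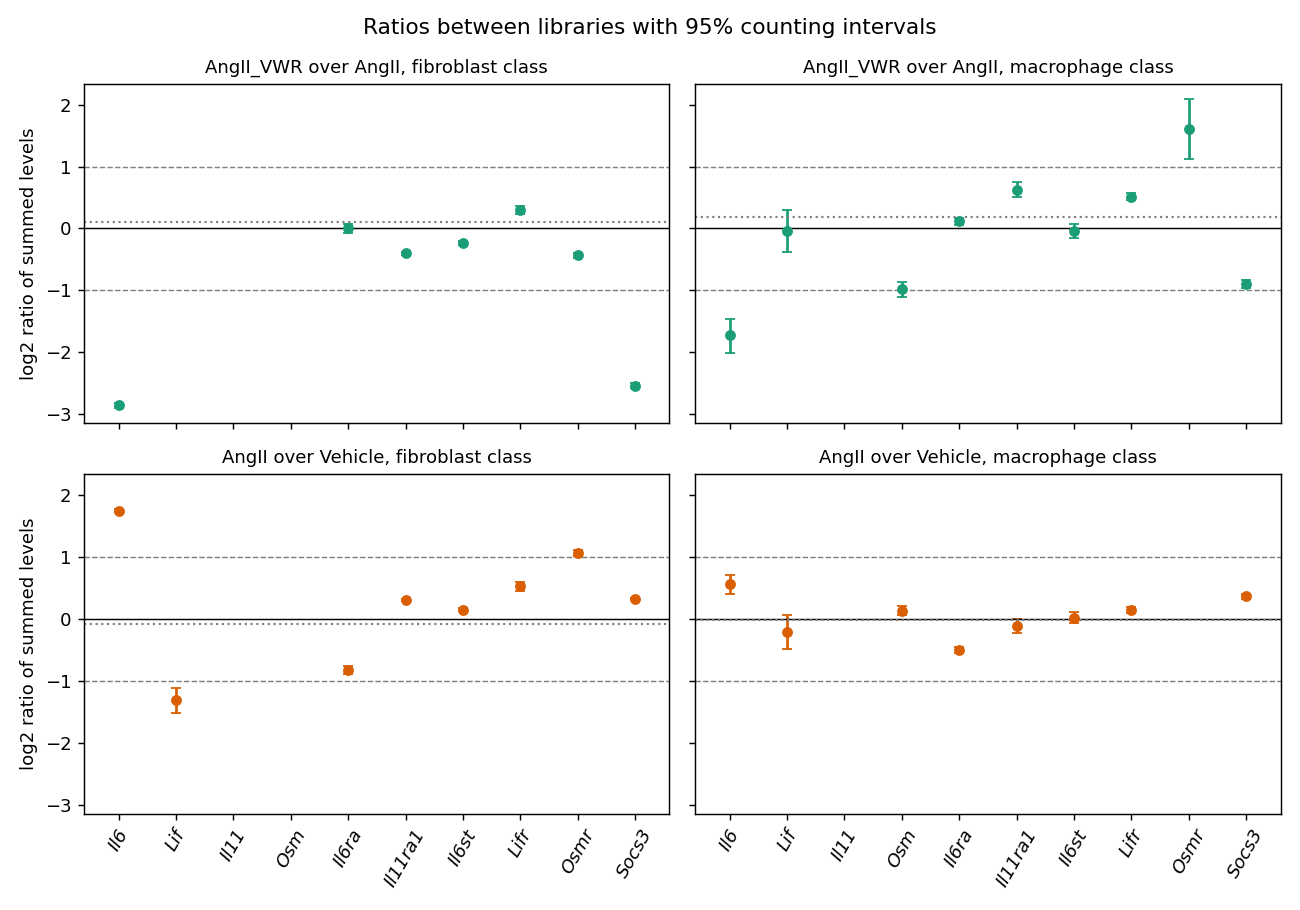
Log2 ratios of summed levels for the measured genes: AngII_VWR over AngII (top) and AngII over Vehicle (bottom), in the fibroblast class (left) and the macrophage class (right). Bars are 95% counting intervals, dashed lines mark 2-fold, and the dotted line is the median of all measured genes. Il6 and Socs3 lie beyond −2 in fibroblasts of AngII_VWR over AngII, and Il6 and Osmr above 1 in fibroblasts of AngII over Vehicle.

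Other genes of the pathway were taken from lists. Regulators of Il6 transcription and mRNA decay, mostly NF-kB subunits and their inhibitors, AP-1 family genes and RNA-binding proteins, were lower in fibroblasts of AngII_VWR than of AngII for 17 of 20 genes, with 9 at least 2-fold lower, against 1.96% of all genes, and none higher, against 2.29%. Their median log2 ratio was −0.89, against 0.10 for all genes. Tnfaip3, an NF-kB feedback inhibitor, was the lowest of the 20 in AngII_VWR over AngII with a log2 ratio of −2.54, its level being 146 CPM in AngII and 46.2 in Vehicle, and Zfp36, which speeds the decay of cytokine mRNA, at 582 CPM in AngII_VWR, 1699.6 in AngII and 1349.9 in Vehicle. Arid5a, which protects Il6 mRNA, stood at 26.2 CPM in AngII_VWR, 67.1 in AngII and 50.3 in Vehicle, and the AP-1-related factor Atf3 at 439 CPM in AngII_VWR, 1206 in AngII and 1597 in Vehicle. In AngII over Vehicle 17 of the 20 were higher, 2 of them at least 2-fold, Tnfaip3 and Nfkbie, against 3.47% of all genes, and none was 2-fold lower, against 2.02%, with a median of 0.37. In macrophages of AngII_VWR 13 of 20 were lower than in AngII, 1 at least 2-fold, Nfkbie, against 2.21% of all genes, with a median of −0.34 against 0.18.

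Several genes of this list, and Il6 and Socs3 themselves, also respond to tissue digestion. A list of 20 digestion-induced genes summed to 18885 CPM in fibroblasts of AngII_VWR, 22371 in AngII and 22137 in Vehicle, and 12 of the 20 were lower in AngII_VWR than in AngII, 1 at least 2-fold, Klf2, against 1.96% of all genes. In macrophages the sums were 16590 CPM in AngII_VWR, 14735 in AngII and 25891 in Vehicle. There 20 of 20 were lower in AngII than in Vehicle, 9 at least 2-fold, against 2.43% of all genes, with a median log2 ratio of −0.94. In macrophages of AngII_VWR 14 of 20 were higher than in AngII, 1 at least 2-fold, Hspb1, against 6.18%. In fibroblasts of AngII over Vehicle 10 of 20 were higher and none passed 2-fold in either direction. The part of digestion in the levels of Il6 and Socs3 was not tested.

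In fibroblasts 8 of 11 transducers of the signalling pathway were higher in AngII than in Vehicle. Their median log2 ratio was 0.27, against −0.08 for all genes. In AngII_VWR over AngII 8 were higher and 3 lower, with a median of 0.07 against 0.10. None of the 11 was 2-fold different in either comparison. Of all genes 3.47% were higher and 2.02% lower in AngII over Vehicle, and 2.29% higher and 1.96% lower in AngII_VWR over AngII. At such shares few calls are due among 11 genes, so their absence says little. Stat3 itself stood at 392 CPM in AngII_VWR, 378 in AngII and 227 in Vehicle, and the kinase Jak2 at 40.0 CPM in AngII_VWR, 75.7 in AngII and 42.0 in Vehicle. Of 12 measured inhibitors Ptpn2, a phosphatase that acts on Janus kinases and STATs, was 2-fold higher in AngII than in Vehicle and 2-fold lower in AngII_VWR than in AngII, at 43.9 CPM in AngII_VWR, 142 in AngII and 49.5 in Vehicle. The related feedback gene Socs1 stood at 41.6 CPM in AngII_VWR, 61.1 in AngII and 52.3 in Vehicle. In macrophages Jak2 and the adaptor Gab1 were at least 2-fold higher in AngII than in Vehicle, against 3.86% of all genes, at 46.4 CPM in AngII_VWR, 66.3 in AngII and 28.2 in Vehicle for Jak2, and at 107 CPM in AngII_VWR, 129 in AngII and 55.3 in Vehicle for Gab1.

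Known STAT3 target genes were mostly higher in AngII than in Vehicle, at 19 of 25 in fibroblasts and 18 of 23 in macrophages. In AngII_VWR over AngII they split, with 12 higher and 14 lower in fibroblasts and 12 higher and 13 lower in macrophages. In macrophages of AngII over Vehicle 6 were at least 2-fold higher, against 3.86% of all genes, and 1 lower, against 2.43%. Their median log2 ratio there was 0.55. In fibroblasts of AngII over Vehicle 5 of 25 were at least 2-fold higher, against 3.47% of all genes, and 2 lower, against 2.02%, with a median log2 ratio of 0.37 against −0.08 for all genes. Saa3, an acute-phase gene, stood at 215 CPM in AngII_VWR, 57.7 in AngII and 0.369 in Vehicle, Hp, encoding haptoglobin, at 47.3 CPM in AngII_VWR, 117 in AngII and 20.8 in Vehicle, and Hif1a, a hypoxia-response factor, at 75.5 CPM in AngII_VWR, 163 in AngII and 57.2 in Vehicle. The cyclin Ccnd1 was lower in AngII, at 36.9 CPM in AngII_VWR, 25.5 in AngII and 76.1 in Vehicle. In AngII_VWR over AngII 7 of 26 were at least 2-fold lower, against 1.96% of all genes, and 1 higher, against 2.29%, with a median of −0.06 against 0.10. Tnfaip6, a hyaluronan-binding protein gene, stood at 472 CPM in AngII_VWR, 2466 in AngII and 1746 in Vehicle, the kinase Pim1 at 58.0 CPM in AngII_VWR, 184 in AngII and 101 in Vehicle, and Bcl3, an NF-kB cofactor, at 24.7 CPM in AngII_VWR, 76.5 in AngII and 43.2 in Vehicle. Saa3 was the only one of the 26 at least 2-fold higher.

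Few other ligands and receptors of the family are given here. Ebi3, a subunit of interleukins 27 and 35, stood at 19.4 CPM in AngII_VWR, 40.1 in AngII and 20.0 in Vehicle in macrophages. Il31ra, a receptor that pairs with Osmr, stood at 17.2 CPM in AngII_VWR, 41.4 in AngII and 36.7 in Vehicle in fibroblasts and 12.7 CPM in AngII_VWR, 28.1 in AngII and 14.8 in Vehicle in macrophages, lowest in AngII_VWR in both. The leptin receptor Lepr stood at 3.17 CPM in AngII_VWR, 3.60 in AngII and 9.73 in Vehicle in fibroblasts. These 3 were named after their values were seen, since none reached the 50 CPM set for naming.

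The genes most like each member were sought by Pearson's r of log2(CPM + 1) over 9 sums, the 3 cell groups in 3 libraries, among 8580 genes. With so few sums and large differences between cell types many genes score high, and r is a description only. Nearest to Il6 were Malsu1 (0.98), Ptx3 (0.98) and Ndufa13 (0.98), and nearest to Socs3 was Fkbp8 (0.94), the lowest best match of the members searched. Osmr was nearest to the interleukin 1 receptor gene Il1r1 (1.00), Osm to the chemokine gene Ccl4 (1.00), Lifr to Lgmn (0.99), Il6ra to Nars (0.99), Il11ra1 to C1qtnf3 (0.99) and Il6st to Pmm1 (0.99).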

How the data were processed

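Single-cell RNA of aortic adventitia was deposited as a matrix of UMI counts per gene and barcode for each of 3 libraries. The counts are raw whole numbers written by Cell Ranger, version 7.1.0 for AngII_VWR and 7.0.1 for AngII and Vehicle, per the file headers. The genome was mm10, per the submitters' processing notes, and whether introns were counted is not given in the sources used here. The peeled adventitia was digested with enzymes, red cells were lysed, and 3′ libraries were made on the 10x Genomics Chromium platform, per the labels' protocols. How mice were combined is not given there.

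The deposited barcodes numbered 19633 in AngII_VWR, 10515 in AngII and 15093 in Vehicle. Among the cells kept after the filtering and doublet removal below, AngII_VWR shared 47 barcodes with AngII and 51 with Vehicle, and AngII shared 30 with Vehicle. Barcodes were dropped below 300 genes or 500 UMIs, or with over 10% of their UMIs mitochondrial. The highest Scrublet scores (scanpy 1.11.5) were removed as doublets at 0.8% per 1000 cells, which took 2894 cells (15.2%) in AngII_VWR, 784 (7.92%) in AngII and 1537 (11.1%) in Vehicle. Scrublet's own thresholds would have marked 826 cells in AngII_VWR, 160 in AngII and 282 in Vehicle. Within 0.8 to 1.25 times the fibroblast cut lay 1031 cells in AngII_VWR, 321 in AngII and 1365 in Vehicle, and 186 in AngII_VWR, 26 in AngII and 87 in Vehicle lay as near the macrophage cut.

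UMIs were summed per class and library. Intervals at 95% are exact Poisson for levels, Clopper-Pearson for shares and conditional for ratios. Other cell types were taken as cells with UMIs of at least 3 of 8 markers of 1 list and more than of any other, and reported with at least 20 cells. Ratios were made for genes with at least 5 CPM in either library and 10 UMIs in both, and called at 2-fold. All 10 members are named, and of each pathway list up to 4 genes with the largest ratio at 50 CPM or more. Likeness used genes of at least 20 CPM. The members and lists were chosen with earlier results of these data known. The calculations were tested on simulated data. The software was scipy 1.17.1, pandas 2.3.3, matplotlib 3.10.9 and numpy 2.4.6 under Python 3.11.15. The alternatives tried changed the filters, doublet removal, class cuts, summing, scaling, free RNA, minimum level, fibroblast subset and thinning depth.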

Additional observations from a re-analysis of the deposited data

Results flagged for a closer look

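For 2 receptor chains the ratio of AngII_VWR over AngII had opposite signs in fibroblasts and macrophages, with counting intervals clear of 0 in both classes. Il11ra1, the interleukin 11 receptor, had a log2 ratio of −0.40 in fibroblasts and 0.63 in macrophages. Osmr, the oncostatin M receptor, had a log2 ratio of −0.44 in fibroblasts and 1.60 in macrophages. With 1 library per group the difference between the classes was not tested. Both macrophage levels moved with the fibroblast markers found in that class, which stood at 5.06% of their fibroblast level in AngII_VWR and 1.81% in AngII. Osmr in macrophages stood at 4.39% of its fibroblast level in AngII_VWR and 1.07% in AngII, and Il11ra1 at 12.2% in AngII_VWR and 5.96% in AngII. With 5% of the class total subtracted as free RNA, the macrophage log2 ratio was 3.22 for Osmr and 1.35 for Il11ra1. For Osmr the amount subtracted exceeded the AngII macrophage count, which was then set to 3 counts, so 3.22 reflects that floor. The same 5% was taken from both libraries although their crossing differed. The part of stray RNA in these ratios was not tested.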

How the results depend on the processing

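For the 32 member ratios, 365 log2 ratios were recomputed under other settings, of which 257 stayed within the counting interval, 107 left it and 1 called ratio changed sign. That ratio was Il6 in macrophages of AngII_VWR over AngII, at −1.73 and at 0.53 with 5% free RNA subtracted. The share subtracted was the same in all libraries, whose crossing differed. In all, 22 recomputed ratios had another sign. In macrophages of AngII over Vehicle, Il6 was at 0.56, and −1.93 with free RNA subtracted. In fibroblasts of AngII over Vehicle, Il6ra (−0.82) was 0.18 with the cuts doubled and 0.12 in activated-marker cells alone. Il11ra1 (0.31) was −0.07, −0.07 and −0.26 with the cuts doubled, in activated-marker and in progenitor-marker cells alone. Socs3 (0.33) was −0.03 with the cuts doubled and −0.13 in progenitor-marker cells alone. The others were ratios of Il6ra, Il6st and Lif of at most 0.11 in size. In fibroblasts Il6 ranged from −2.96 to −2.66 and Socs3 from −2.64 to −2.29 in AngII_VWR over AngII, so both stayed at least 2-fold lower under all settings run. In AngII over Vehicle, Il6 ranged from 0.33 to 1.89 and Osmr from 0.64 to 1.16. The count of members at least 2-fold higher there was 2, and 1 (Il6) with the mean over cells of each cell's CPM or without activated-marker cells. It was 0 in activated-marker cells alone and 1 in progenitor-marker cells alone. The count lower there, 1 (Lif), was 0 with a CPM minimum of 20 and in progenitor-marker cells alone. These 2 single-subset settings were chosen after seeing the data. In macrophages of AngII over Vehicle the count lower was 0, and 1 (Il6) with free RNA subtracted. In macrophages of AngII_VWR over AngII the count higher, 1 (Osmr), was 0 with a CPM minimum of 20 and 2 (Il11, Osmr) with no minimum, and with free RNA subtracted the 1 was Il11ra1. The count lower, 1 (Il6), was 2 (Il6, Osm) without doublet removal and with the cuts doubled, 3 (Il6, Osm, Socs3) with ratios centred on the median gene, and 0 with free RNA subtracted. Apart from the settings themselves, the cause of these changes was not tested. No paired analysis was possible because each group had 1 library and the labels gave no replicate numbers, and for the same reason no replicate could be left out. AngII_VWR was the shallowest library per cell, ratios below the 5 CPM minimum, such as that of Il11 in fibroblasts, were not called, and treatment cannot be told apart from library, preparation or software version.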
